A study of Homo sapiens with 45 samples.

Results

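The data compare how loss of FOXA1 changed gene expression in a pair of human breast cancer cell lines of the invasive lobular type, MM134, also named MDA-MB-134-VI, and MM330, also named MDA-MB-330. The quantity described is a difference of differences: the effect of FOXA1 siRNA in MM134 minus its effect in MM330, both measured in cells given estradiol (E2). It rests on 12 of the 45 libraries of the series, 3 in each of 4 groups, and on the 20054 genes with enough counts for a test among 57353 gene symbols. The members were taken from the sample labels by cell line, siRNA and treatment, and no measured value took part in that choice.

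FOXA1 is a pioneer transcription factor of the forkhead family. It binds compacted chromatin in luminal breast cells and opens enhancers at which the estrogen receptor, encoded by ESR1, then binds. Lobular carcinomas are typically driven by the estrogen receptor and have typically lost cell adhesion through E-cadherin or its partners.

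The series asked which estradiol-driven changes in expression depend on the receptor, on FOXA1 or on MDC1, a DNA damage checkpoint adaptor, in lobular lines and in a ductal line. Every cell of the 4 groups was deprived of hormone for 3 days, transfected with siRNA, given 100 pM E2 24 h later and collected after a further 24 h. The groups, with 3 libraries each, were MM134 with FOXA1 siRNA and E2 (siFOXA1_E2), MM134 with non-targeting siRNA and E2 (siNT_E2), MM330 siFOXA1_E2 and MM330 siNT_E2. Each line is a single line grown in culture. The labels do not say whether replicates 1, 2 and 3 were grown as separate cultures. The p-values therefore measure the spread between these libraries, which may be technical.

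Polyadenylated RNA was sequenced as paired reads of 150 bases with a stranded kit. The 12 libraries held 21 to 36.7 M counts. MM330 siFOXA1_E2 replicate 1 stood apart before any comparison. It had the fewest counts, had no count for 2699 of the tested genes against 755 to 1058 in the other 11 libraries, and correlated with its group mates at 0.9705 on the log scale. Results are therefore also given without it. The share of counts on processed pseudogenes was 0.546% in MM134 siFOXA1_E2 replicate 1 and 0.397% in MM330 siNT_E2 replicate 1, and 0.169 to 0.195% in the other 10 libraries. The labelled cell type was checked against its markers. KRT8, KRT18, KRT19, EPCAM and GATA3, genes of luminal epithelium, averaged at least 330 CPM (counts per M, from totals scaled between libraries) in all 4 groups. ESR1, a further luminal marker, averaged from 111 CPM in MM134 siFOXA1_E2 to 552 CPM in MM134 siNT_E2. PTPRC of immune cells and PECAM1 of endothelium had too few counts for a test. Endothelial markers, 3 of 11 tested, summed to at most 2.07 CPM in the MM134 libraries and 11.6 CPM in the MM330 libraries. COL1A1, a fibroblast marker, was present, at averages of 29.4 to 101 CPM in the 4 groups. CDH1, which encodes E-cadherin, averaged 26.8 and 21 CPM in MM134 siFOXA1_E2 and siNT_E2, and 761 and 948 CPM in MM330 siFOXA1_E2 and siNT_E2. CTNNA1, which encodes its partner alpha-catenin, averaged 553 and 466 CPM in the same groups of MM134 and 41.1 and 40.5 CPM in those of MM330.

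FOXA1 itself was lowered to a like level in both lines. In MM134 it stood at 111, 115 and 115 CPM in the siFOXA1_E2 libraries, against 467, 445 and 446 CPM in the siNT_E2 libraries. In MM330 it stood at 160, 124 and 135 CPM in the siFOXA1_E2 libraries, against 524, 494 and 517 CPM in the siNT_E2 libraries. Every knockdown library was far below every control library, and replicate 1 of MM330 siFOXA1_E2 was the highest of the 6 knockdown libraries. The log2 fold change was -1.99 in MM134 (SE 0.05) and -1.87 in MM330 (SE 0.05), and the difference between lines, -0.12 (95% interval -0.27 to 0.03), did not pass the test (adjusted p = 0.21). Without MM330 siFOXA1_E2 replicate 2, the difference was -0.20 with an adjusted p of 0.022. FOXA1 lies on chromosome 14 at 37589984 to 37596059 of GRCh38, on the minus strand.

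Here and below, a log2 fold change is siFOXA1_E2 over siNT_E2 within a line, a difference is the log2 change in MM134 minus that in MM330, and called means an adjusted p under 0.05 in edgeR's quasi-likelihood test with Benjamini-Hochberg adjustment over all genes tested. A positive difference therefore means a larger rise or a smaller fall in MM134, or a rise there with a fall in MM330. The difference was called for 6368 genes, 31.8% of those tested. It was positive for 3375 (16.8%) and negative for 2993 (14.9%), and 815 and 828 of these had a difference of at least 2-fold. Of those large differences, 501 positive and 473 negative ones were in genes that averaged at least 1 CPM in both lines. Without MM330 siFOXA1_E2 replicate 1, 6479 of 20521 genes were called (31.6%). The calls shared by both fits numbered 5695, 89.4% of the first list and 87.9% of the second, and all 5695 kept their sign.

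Loss of FOXA1 changed many genes in each line, and most genes called in both moved the same way. The effect was called for 9040 genes in MM134 (45.1%), of which 4213 rose (21% of those tested) and 4827 fell (24.1%), and for 9536 in MM330 (47.6%), of which 4580 rose (22.8%) and 4956 fell (24.7%). Of 6016 genes called in both lines, 66.5% of the MM134 calls and 63.1% of the MM330 calls, 5169 had the same sign and 847 had opposite signs. All 847 were also called for the difference: 429 rose in MM134 and fell in MM330, and 418 fell in MM134 and rose in MM330. Among the other called differences, 530 genes rose more in MM134 and 384 rose more in MM330, 484 fell more in MM134 and 690 fell more in MM330, and 188 had no called effect in either line. The rest were called in a single line: 738 up and 811 down in MM134, and 827 up and 869 down in MM330.

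Most called differences were in genes that both lines express. Of the 12914 tested genes that averaged at least 1 CPM in both lines, 5687 were called (44.0%, with 23.6% positive and 20.4% negative). The calls were 180 of 1338 genes expressed in MM134 alone (13.5%) and 254 of 1809 in MM330 alone (14.0%). Of 3993 tested genes below that level in both lines, 247 were called (6.2%), 140 positive and 107 negative. All 247 had a difference of at least 2-fold, from few counts. Across the genes expressed in both lines, the 2 effects correlated with Pearson r = 0.46 and Spearman rho = 0.51. These lines share no library, but genes are not independent replicates and the coefficients are a description.

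Processed pseudogenes, copies of mature transcripts without introns, behaved unlike the other genes. Of 1207 tested, 128 were called (10.6%), 113 with a positive and 15 with a negative difference, against 5626 of 14124 protein-coding genes (39.8%), 3042 positive and 2584 negative. Among genes expressed in both lines, 72 had a called positive difference of at least 4-fold, of which 27 were processed pseudogenes, and 94 had a called negative one, of which none were. A further 112 genes had a positive difference of that size that was not called, and 101 of these were processed pseudogenes. Their median was 2.75, and 0.02 for the 111 still tested without the libraries of higher pseudogene share. The libraries with the 2 highest pseudogene shares of the 12 stand on the sides that make such a difference positive, MM134 siFOXA1_E2 and MM330 siNT_E2. The median of the 72 called genes was 2.59, and 2.13 for the 68 tested without those libraries.

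**Figure D1:**
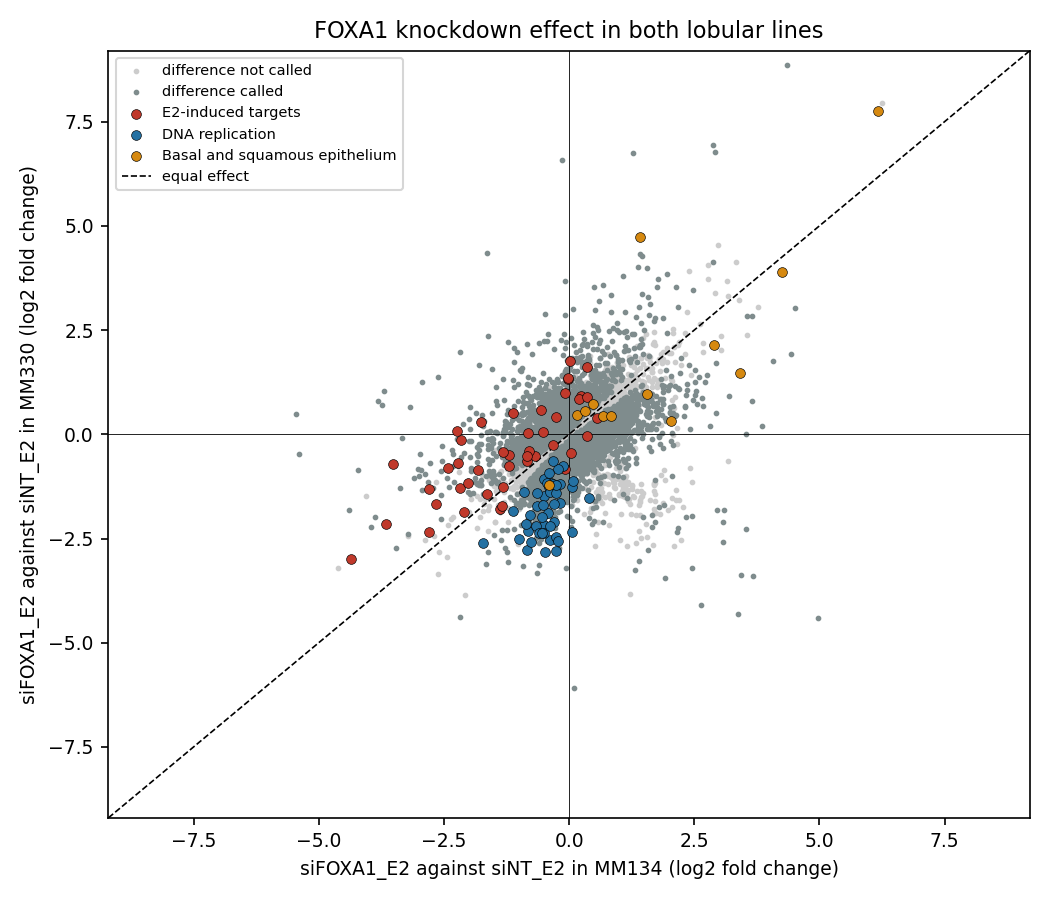
Each point is 1 of the 12914 tested genes expressed in both lines, placed by the log2 fold change of siFOXA1_E2 over siNT_E2 in MM134 (x axis) and in MM330 (y axis). Dark grey points are the 5687 genes whose difference between lines was called, light grey points the others, and the dashed line marks equal effects. Coloured points are list members among them. DNA replication genes sit below the line at MM330 values of -0.65 or lower, and most E2-induced genes sit above it. The light grey cloud at the lower right holds the 112 genes, mostly processed pseudogenes, with an uncalled positive difference of at least 4-fold.

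ESR1, the estrogen receptor gene, fell in both lines and much further in MM134. In MM134 it stood at 112, 108 and 114 CPM in the siFOXA1_E2 libraries, against 562, 548 and 546 CPM in the siNT_E2 libraries. Its MM330 values were 214, 205 and 210 CPM in the siFOXA1_E2 libraries, against 283, 286 and 300 CPM in the siNT_E2 libraries. The groups did not overlap in either line. The change was -2.31 in MM134 and -0.47 in MM330 (log2), a difference of -1.85 (SE 0.08, adjusted p = 8.4e-17), and -1.83 without MM330 siFOXA1_E2 replicate 1. ESR1 lies on chromosome 6 at 151656691 to 152129619, on the plus strand. MDC1 also fell in both lines, by 0.38 on the log2 scale in MM134 and by 0.73 in MM330, with a called difference of 0.35 (adjusted p = 0.00093).

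**Figure D2:**
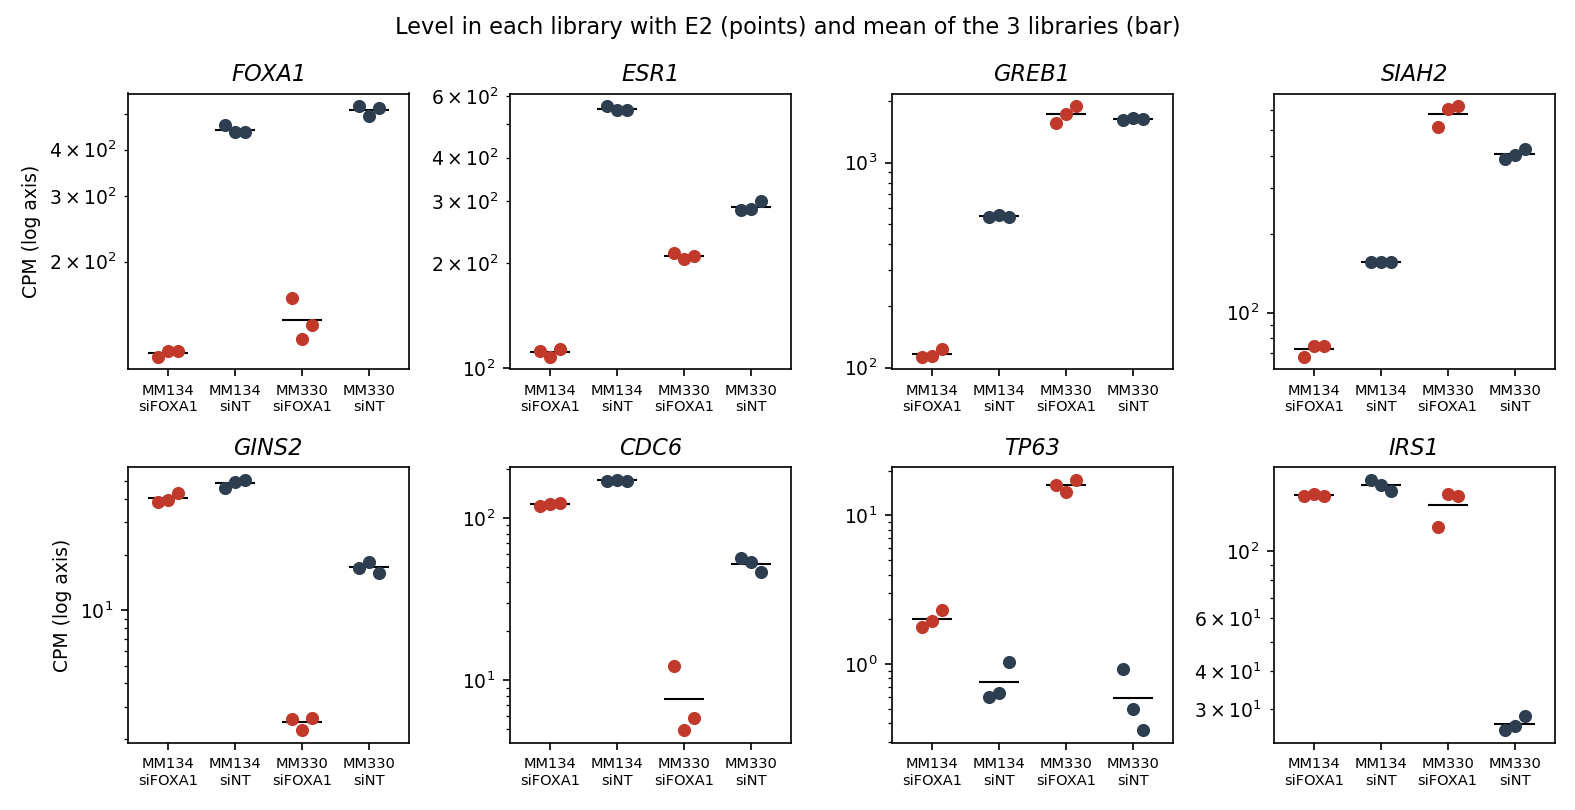
Levels (CPM, log axis, a separate scale for each gene) of 8 genes in each of the 12 libraries, all given E2. Points are libraries and bars are the means of 3. Red points are siFOXA1 and dark points siNT libraries. FOXA1 fell alike in both lines, ESR1 and GREB1 fell mainly or solely in MM134, GINS2 and CDC6 mainly in MM330, and IRS1 rose in MM330.

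Genes that estradiol induces fell more in MM134 than in MM330. Of the 50 listed E2-induced targets, all tested, the difference was negative and called for 36 and positive and called for 3, with a median of -0.90 against 0.02 over all genes. Called members made up 78% of the list, against 31.8% of all genes and 44.0% of those expressed in both lines. In MM134, 35 fell and 6 rose (median -1.21), against 24.1% and 21% of all genes tested. In MM330, 27 fell and 14 rose (median -0.40), against 24.7% and 22.8%. Receptor knockdown, which shares the siNT_E2 libraries with these effects, gave list medians of -1.55 in MM134 and -1.64 in MM330. E2 itself, siNT_E2 against siNT without E2, gave medians of 1.72 in MM134 and 1.47 in MM330. Without MM330 siFOXA1_E2 replicate 1, the counts of the difference were 35 and 4.

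GREB1, a chromatin-bound co-factor of the estrogen receptor, lost most of its RNA in MM134 alone. It stood at 113, 114 and 123 CPM in the MM134 siFOXA1_E2 libraries, against 546, 553 and 546 CPM in the MM134 siNT_E2 libraries. MM330 gave 1570, 1730 and 1890 CPM in the siFOXA1_E2 libraries, against 1610, 1650 and 1640 CPM in the siNT_E2 libraries. The MM134 groups were wide apart and the MM330 groups overlapped. The changes were -2.23 in MM134 and 0.08 in MM330 (adjusted p = 0.14 for the MM330 change), a difference of -2.32 (SE 0.07, adjusted p = 8.6e-21). Receptor knockdown gave -3.18 in MM134 and -2.34 in MM330, against the same siNT_E2 libraries. GREB1 lies on chromosome 2 at 11482341 to 11642788, on the plus strand.

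SIAH2, which encodes a ubiquitin ligase, moved in opposite directions. Its levels were 67.8, 74.6 and 74.5 CPM in MM134 siFOXA1_E2 libraries, against 156, 157 and 156 CPM in MM134 siNT_E2 libraries. In MM330 they were 514, 605 and 619 CPM with siFOXA1_E2, against 389, 402 and 422 CPM with siNT_E2. The changes, -1.12 in MM134 and 0.52 in MM330, were both called, and neither pair of groups overlapped. ANXA9, an annexin gene on the list of secreted and surface luminal proteins, had the same pattern (-0.67 in MM134 and 0.38 in MM330). RAPGEFL1 fell by 1.77 in MM134, while its MM330 rise of 0.28 (adjusted p = 0.022) came from groups that overlapped, at 16.2, 21 and 23.7 CPM with siFOXA1_E2 against 17.1, 18.3 and 15.2 CPM with siNT_E2.

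Other classical targets fell in both lines, further in MM134. TFF1, a secreted trefoil peptide, fell by 3.65 in MM134 and by 2.15 in MM330 on the log2 scale. It stood at 5.26, 5.24 and 4.50 CPM in MM134 siFOXA1_E2 libraries, against 60.6, 64.6 and 62.9 CPM in MM134 siNT_E2 libraries, and at 1210, 806 and 897 CPM in MM330 siFOXA1_E2 libraries, against 4130, 4440 and 4350 CPM in MM330 siNT_E2 libraries. Replicate 1 of MM330 siFOXA1_E2 was the highest of its group, and no groups overlapped. The related TFF3 gave -2.78 in MM134 and -0.68 in MM330. PDZK1, a scaffold protein gene and a strong E2 target, gave -3.51 in MM134 and -0.71 in MM330, the largest difference of the called targets on the list (-2.80, adjusted p = 5.1e-13). AREG, an EGFR ligand, gave -4.36 in MM134 and -3.00 in MM330, and MYC, which encodes a growth-promoting transcription factor, gave -0.79 in MM134 and -0.39 in MM330. The MYC difference of -0.40 was not called without MM330 siFOXA1_E2 replicate 3 (-0.31). PGR, the progesterone receptor gene, had only 8 and 24 counts in all in MM134 siFOXA1_E2 and siNT_E2. Its called difference of -1.90 was lost when any 1 of 3 libraries was left out (-1.32 to -1.71).

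Not every listed target differed. CCND1, which encodes cyclin D1, fell by 1.31 in MM134 and by 1.27 in MM330, a difference of -0.04 (95% interval -0.23 to 0.14, adjusted p = 0.77). E2 raised CCND1 by 1.06 in MM134, but its effect of -0.03 in MM330 was not called. XBP1, a transcription factor of the secretory pathway and of luminal cells, fell by 1.64 in MM134 and by 1.43 in MM330. Its difference of -0.21 (adjusted p = 0.04) was -0.08 without MM330 siFOXA1_E2 replicate 1 (adjusted p = 0.22). Other listed targets had a called difference with a rise in MM330. HSPB8, a small heat shock protein gene, rose by 0.36 in MM134 and by 1.62 in MM330, a called difference of -1.26 (adjusted p = 1.6e-13). E2 raised HSPB8 by 2.01 in MM134, but its effect of 0.03 in MM330 was not called. CTSD, which encodes the protease cathepsin D and was picked after its values were seen, averaged 416 and 424 CPM in MM134 siFOXA1_E2 and siNT_E2, and 1340 and 536 CPM in MM330 siFOXA1_E2 and siNT_E2, a called difference of -1.35 (adjusted p = 1e-11).

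On a shorter list of genes described as repressed by estradiol, positive differences outnumbered negative ones. Of 19 tested, 10 had a positive and 5 a negative called difference (78.9% called, against 31.8% of all genes and 44.0% of those expressed in both lines), with a median of 0.47. E2 itself gave list medians of -1.33 in MM134 and -0.60 in MM330, from siNT_E2 libraries that the FOXA1 effects share. After FOXA1 knockdown, 14 rose and 1 fell in MM134 (median 1.06), against 21% and 24.1% of all genes tested. In MM330, 11 rose and 2 fell (median 0.30), against 22.8% and 24.7%. ERBB2, the HER2 receptor gene, rose by 1.06 in MM134 and by 0.30 in MM330, where its level was far higher, at 9770 and 7930 CPM in siFOXA1_E2 and siNT_E2 on average, against 203 and 97.7 CPM in MM134. TXNIP, an inhibitor of thioredoxin, rose by 1.31 in MM134 and by 0.10 in MM330. YPEL3, a gene of the yippee-like family, rose by 1.12 in MM134 and gave -0.15 in MM330, which was not called. E2 lowered both in MM134 (-1.90 and -1.33), but its effects of 0.05 and 0.04 in MM330 were not called. PDCD4, a translation inhibitor gene, gave -0.10 in MM134, not called, and 0.78 in MM330. These data did not show it as E2-repressed in MM134, where E2 raised it by 0.64 and receptor knockdown lowered it, with a change of -0.82.

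The widest contrast among the lists was in DNA replication genes, which fell steeply in MM330 and slightly in MM134. Of 46 tested, 45 had a positive called difference and none a negative one (97.8%, against 31.8% of all genes and 44.0% of those expressed in both lines), with a median of 1.31. In MM330 all 46 fell (median -1.77), against 24.7% of all genes tested. In MM134 38 fell and 1 rose (median -0.41), against 24.1% and 21%. The member left uncalled was RPA3, a subunit of the single-strand binding protein, named after its value was seen. Without MM330 siFOXA1_E2 replicate 1, all 46 were called and the median was 1.60. In these cultures, fewer cells in S phase and less RNA per cell cannot be told apart. Receptor knockdown gave list medians of -0.46 in MM134 and -0.36 in MM330, against the same siNT_E2 libraries, and E2 gave 0.49 and 0.88.

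GINS2 encodes a subunit of the replicative helicase. It stood at 38.8, 39.6 and 43.4 CPM in MM134 siFOXA1_E2 libraries, against 46.3, 49.5 and 51.2 CPM in MM134 siNT_E2 libraries. Levels in MM330 were 2.56, 2.23 and 2.6 CPM in siFOXA1_E2 libraries, against 17.0, 18.3 and 16 CPM in siNT_E2 libraries. Neither pair of groups overlapped, but the MM134 groups were close and the MM330 groups far apart. The changes were -0.27 in MM134 and -2.79 in MM330, a difference of 2.52 (SE 0.09, adjusted p = 3.2e-18). CDC6, which loads the helicase at origins, stood at 119, 121 and 124 CPM in MM134 siFOXA1_E2 libraries, against 168, 172 and 169 CPM in MM134 siNT_E2 libraries. For MM330 the values were 12.2, 4.92 and 5.88 CPM in siFOXA1_E2 libraries, against 56.9, 53.1 and 46.1 CPM in siNT_E2 libraries. Replicate 1 of MM330 siFOXA1_E2 lay well above its group mates, and the difference was 2.34 with it and 2.77 without it. MCM4, a helicase core subunit, rose by 0.39 in MM134 and fell by 1.53 in MM330. MCM3, of the same ring, fell by 0.38 in MM134 and by 1.38 in MM330. CDCA7, a chromatin protein gene with 1 of the 3 largest differences among genes that both lines express and that fell more in MM330, gave -0.60 in MM134 and -3.13 in MM330.

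**Figure D3:**
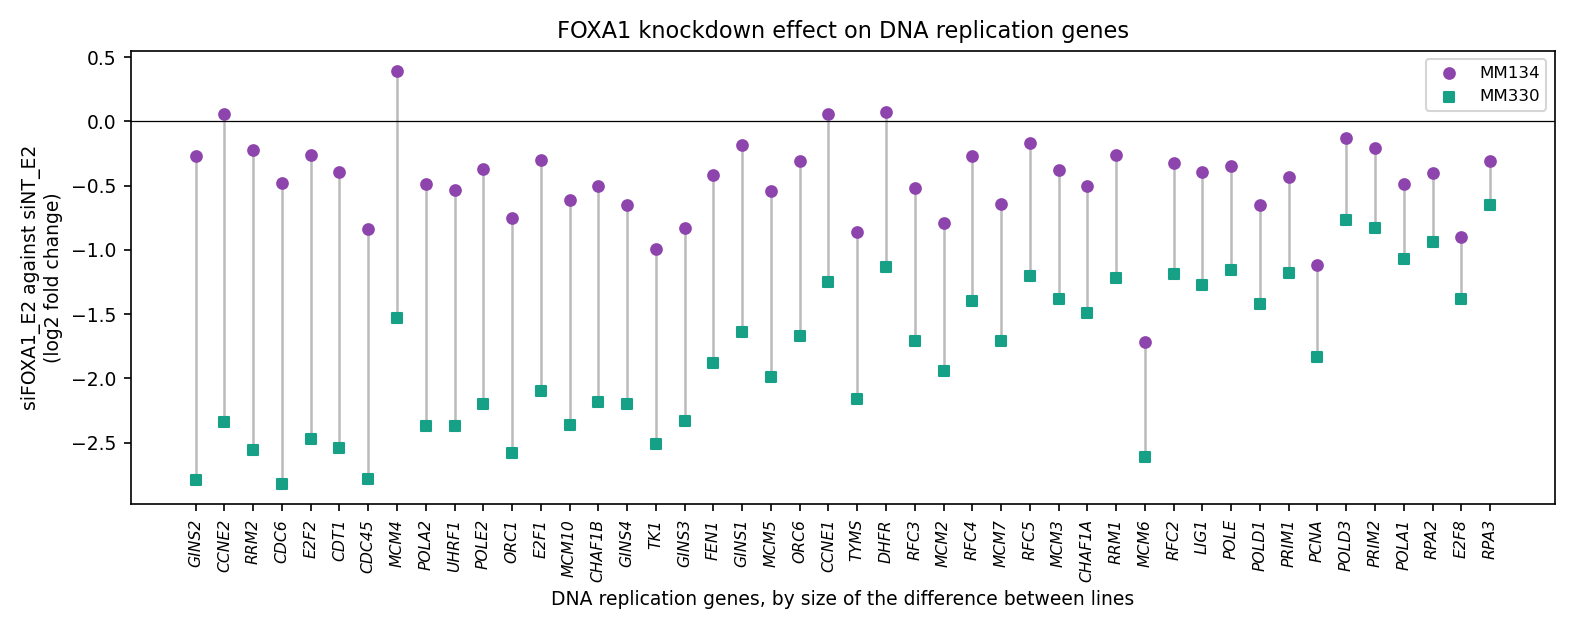
Log2 fold change of siFOXA1_E2 over siNT_E2 in MM134 (circles) and MM330 (squares) for the 46 tested DNA replication genes, ordered by the size of the difference. Every circle lies above its square. The gap is 2.52 for GINS2 at the left and 0.99 for MCM3.

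Mitosis genes fell in both lines and showed a smaller gap. In MM134, 33 of 35 fell (median -0.54), against 24.1% of all genes tested. In MM330 all 35 fell (median -1.0), against 24.7%. The difference was positive and called for 21 and negative and called for none (60%, against 31.8% of all genes and 44.0% of those expressed in both lines), with a median of 0.53. Without MM330 siFOXA1_E2 replicate 1, 33 were called and the median was 0.65, so the count depends on that library. BUB1B, a spindle checkpoint kinase gene, gave -0.32 in MM134 and -1.30 in MM330, and AURKB, the kinase of the chromosomal passenger complex, gave -0.75 and -1.60. TCF19 and CENPP were among the 5 largest differences of genes that both lines express and that rose in MM134 and fell in MM330. TCF19, linked to cell cycle progression, stood at 87.8, 90.4 and 91.3 CPM in MM134 siFOXA1_E2 libraries, against 65.2, 60.3 and 59.6 CPM in MM134 siNT_E2 libraries. In MM330 the levels were 43.3, 18.9 and 23.1 CPM with siFOXA1_E2, against 101, 101 and 76.5 CPM with siNT_E2, and replicate 1 was again the highest of the knockdown group. CENPP, a centromere protein gene, gave 0.48 in MM134 and -1.76 in MM330.

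Promoter sequences from RefSeq (GRCh38.p14, the 250 bases before each gene's start) were searched on both strands, since the replication genes moved together. The letters TTTCCCGC, TTTGGCGC, TTTCGCGC or TTTGCCGC, forms of the E2F element, were in 15 of 37 DNA replication genes with a promoter in the table (40.5%), in 1 of 28 mitosis genes and in 0 of 38 E2-induced genes, against 2.79% of all 27305 promoters. The letters TTTGAA, the cell cycle homology region of late cell cycle genes, were in 15 of 28 mitosis genes (53.6%) and in 1 of 37 replication genes, against 13.6% of all promoters. The forkhead letters TGTTTAC or TGTTTGC, of which the second can overlap TTTGCCGC, were in 1 of 37 replication, 1 of 28 mitosis and 2 of 38 E2-induced genes, against 6.05% of all. The palindromic estrogen response element, GGTCA and TGACC with any 3 bases between them, was in none of the 3 lists and in 0.0439% of all. At that share, no match was likely in lists of this size, so its absence sets no list apart. Distant enhancers were not searched. A match is a description of letters in this window and not a shown binding site. The promoters of GINS2 (chr16:85688955-85689204, minus strand) and of MCM3 (chr6:52284743-52284992, minus strand) are printed because they belong to replication genes described above, a large difference and a smaller one. Capitals mark the E2F letters, which lie 31 to 24 bases before the start of GINS2, on the opposite strand, and 174 to 167 bases before that of MCM3.
GINS2: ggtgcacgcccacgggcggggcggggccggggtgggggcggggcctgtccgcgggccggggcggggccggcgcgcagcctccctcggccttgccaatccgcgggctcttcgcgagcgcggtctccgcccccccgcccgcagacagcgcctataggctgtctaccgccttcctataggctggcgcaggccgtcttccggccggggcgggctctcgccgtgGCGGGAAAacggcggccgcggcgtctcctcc
MCM3: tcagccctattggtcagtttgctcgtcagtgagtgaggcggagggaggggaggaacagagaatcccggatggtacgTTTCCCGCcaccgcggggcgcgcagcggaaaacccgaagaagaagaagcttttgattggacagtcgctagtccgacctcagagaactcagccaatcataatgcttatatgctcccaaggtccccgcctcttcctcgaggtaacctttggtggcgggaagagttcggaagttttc

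Genes of growth factor signalling held some of the largest differences. Of 38 tested receptor tyrosine kinases, ligands and partners, 16 had a negative and 9 a positive called difference (65.8%, against 31.8% of all genes and 44.0% of those expressed in both lines). Negative calls were 20.4% and positive ones 23.6% of the genes expressed in both lines. The list median was -0.57, and -0.38 without MM330 siFOXA1_E2 replicate 1. In MM134, 18 fell and 11 rose, against 24.1% and 21% of all genes tested. In MM330, 11 fell and 19 rose, against 24.7% and 22.8%. IRS1, the adaptor of the insulin and IGF1 receptors, stood at 152, 154 and 152 CPM in MM134 siFOXA1_E2 libraries, against 172, 165 and 158 CPM in MM134 siNT_E2 libraries. The MM330 levels were 120, 154 and 152 CPM in siFOXA1_E2 libraries, against 25.6, 26.4 and 28.6 CPM in siNT_E2 libraries. Replicates 2 and 3 of MM330 siFOXA1_E2 reached the range of the MM134 libraries, and replicate 1 stayed below it. The MM134 change of -0.11 was not called, the MM330 change was 2.41, and the difference was -2.52 (SE 0.10, adjusted p = 7.2e-18). IRS1 lies on chromosome 2 at 226731317 to 226799759, on the minus strand.

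IGFBP5, a secreted binder of insulin-like growth factors, fell in MM134 and rose in MM330. It stood at 7.10, 5.65 and 6.97 CPM in MM134 siFOXA1_E2 libraries, against 51.8, 49.1 and 49.8 CPM in MM134 siNT_E2 libraries. In MM330 it stood at 62.7, 63.1 and 61.8 CPM in siFOXA1_E2 libraries, against 25.8, 28.7 and 23.5 CPM in siNT_E2 libraries. No groups overlapped, and the order of the lines was opposite in knockdown and control libraries. The difference was -4.20 (SE 0.12, adjusted p = 8.1e-21). The family member IGFBP3 gave -1.22 in MM134 and 2.22 in MM330. FGFR4, a fibroblast growth factor receptor gene, gave -0.23 in MM134 and 0.89 in MM330, and VEGFA, the angiogenic ligand, gave -0.13, not called, in MM134 and 0.82 in MM330.

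Among genes expressed in both lines, the others with the largest opposite effects belonged to several classes. GPRC5A, an orphan G protein-coupled receptor gene, stood at 291, 301 and 316 CPM in MM134 siFOXA1_E2 libraries, against 164, 161 and 160 CPM in MM134 siNT_E2 libraries. MM330 gave 165, 127 and 130 CPM in siFOXA1_E2 libraries, against 430, 425 and 412 CPM in siNT_E2 libraries. The changes of 0.91 in MM134 and -1.59 in MM330 came from groups that did not overlap. TMEM97, which encodes the sigma-2 receptor, stood at 495, 526 and 526 CPM in MM134 siFOXA1_E2 libraries, against 152, 137 and 135 CPM in MM134 siNT_E2 libraries. Levels in MM330 were 69.7, 59.9 and 63.9 CPM with siFOXA1_E2, against 86.5, 80.6 and 75.5 CPM with siNT_E2. Its rise was large in MM134 (1.87) and its fall small in MM330 (-0.33). STRIP2, of the striatin-interacting complex, gave 0.53 in MM134 and -1.61 in MM330.

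On the converse side, PKIA, an inhibitor of protein kinase A, averaged 0.0495 and 2.39 CPM in MM134 siFOXA1_E2 and siNT_E2, and 46.6 and 33.2 CPM in MM330 siFOXA1_E2 and siNT_E2. The MM134 values rest on 5 and 220 counts in all, so the fitted difference of -5.94 is loosely set. Its 95% interval of -6.72 to -5.15 may be too narrow at such counts. SDK2, a cell adhesion gene of the sidekick family, gave -3.69 in MM134, from 22 and 271 counts in siFOXA1_E2 and siNT_E2, and 1.04 in MM330. SULF2, an extracellular heparan sulfatase gene, stood at 59.5, 58.4 and 63.7 CPM in MM134 siFOXA1_E2 libraries, against 83.3, 84.8 and 84.6 CPM in MM134 siNT_E2 libraries. For MM330 the values were 5.31, 6.34 and 6.39 CPM with siFOXA1_E2, against 0.712, 0.961 and 0.790 CPM with siNT_E2. It fell slightly where it was high and rose strongly where it was low. SGK1, a serum- and glucocorticoid-regulated kinase gene, gave -1.31 in MM134 and 1.33 in MM330.

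Basal and squamous epithelial genes, which luminal cells normally keep low, mostly rose in each line where they had enough counts for a test. Of 53 listed, 31 were tested. A gene near the floor in control libraries could enter through its knockdown counts, which tilts these counts and medians towards rises. In MM134, 20 rose and 1 fell (median 1.70), against 21% and 24.1% of all genes tested. In MM330, 25 rose and 2 fell (median 1.78), against 22.8% and 24.7%. The difference was called for 8 positive and 4 negative members, 38.7% of the list, with a median of -0.23. That share lies between the 31.8% of all genes and the 44.0% of those expressed in both lines. TP63, the transcription factor of basal cells, stood at 1.77, 1.96 and 2.32 CPM in MM134 siFOXA1_E2 libraries, against 0.601, 0.641 and 1.04 CPM in MM134 siNT_E2 libraries. In MM330 the levels were 16, 14.4 and 17.4 CPM in siFOXA1_E2 libraries, against 0.926, 0.499 and 0.359 CPM in siNT_E2 libraries. The control levels of the lines overlapped and the knockdown levels did not. TP63 rose by 1.42 in MM134 and by 4.73 in MM330, a difference of -3.31 (SE 0.39, adjusted p = 6.8e-08). It lies on chromosome 3 at 189631416 to 189897279, on the plus strand. ITGB4, the integrin of hemidesmosomes, ran the other way. It stood at 26.4, 26.1 and 26.4 CPM in MM134 siFOXA1_E2 libraries, against 6.61, 6.04 and 6.59 CPM in MM134 siNT_E2 libraries, and rose by 2.03, against 0.32 in MM330. DSC2, a desmosomal cadherin gene, rose by 1.56 in MM134 and by 0.96 in MM330.

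Luminal and forkhead transcription factors, kept as a single list, were divided. Of 41 tested, 19 had a negative and 8 a positive called difference (65.9%, against 31.8% of all genes and 44.0% of those expressed in both lines), with a median of -0.27. TRPS1, a GATA-type repressor gene, gave -0.37 in MM134 and 0.80 in MM330, and its groups did not overlap in either line (453, 463 and 452 CPM with siFOXA1_E2 against 604, 575 and 589 CPM with siNT_E2 in MM134, and 151, 155 and 148 CPM against 89.5, 84.2 and 86.5 CPM in MM330). SPDEF, an ETS factor gene of luminal and secretory cells, fell by 1.0 in MM134 and by 0.38 in MM330, and the related EHF fell by 1.76 and by 0.22. KLF4, a Krüppel-like factor gene, went the other way, with 0.94 in MM134 and -0.68 in MM330. GATA3, a luminal master regulator, rose in both lines, by 0.25 in MM134 and by 0.36 in MM330. Its difference of -0.11 (95% interval -0.25 to 0.04) was not called, but that of -0.18 without MM330 siFOXA1_E2 replicate 1 was (adjusted p = 0.021).

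Of 33 tested epithelial adhesion genes, 11 had a positive and 9 a negative called difference (60.6%, against 31.8% of all genes and 44.0% of those expressed in both lines), with a median of 0.01. In MM134, 21 rose and 5 fell, against 21% and 24.1% of all genes tested. In MM330, 19 rose and 5 fell, against 22.8% and 24.7% of all genes tested. CDH1 rose by 0.35 in MM134 and fell by 0.32 in MM330, from the unequal levels given above. DSP, the desmosomal plaque gene desmoplakin, stood at 955, 958 and 974 CPM in MM134 siFOXA1_E2 libraries, against 1550, 1520 and 1510 CPM in MM134 siNT_E2 libraries. The MM330 levels were 2000, 1880 and 1850 CPM with siFOXA1_E2, against 1530, 1550 and 1570 CPM with siNT_E2, so it moved in opposite directions. KRT8 rose by 0.69 in MM134 and by 1.39 in MM330. KRT8 and KRT18 have many processed pseudogenes that can share reads with them. Of 25 tested mesenchymal genes, 8 had a negative and 4 a positive called difference (48%, against 44.0% of genes expressed in both lines), with a median of -0.51. TNC, the matrix glycoprotein tenascin C, rose in both lines and far more in MM330. It stood at 94.1, 98.7 and 97.0 CPM in MM134 siFOXA1_E2 libraries, against 55.4, 54.4 and 52.1 CPM in MM134 siNT_E2 libraries, and at 22.2, 25.6 and 25.2 CPM in MM330 siFOXA1_E2 libraries, against 2.39, 2.88 and 1.90 CPM in MM330 siNT_E2 libraries. Fibroblast markers, of which 6 of 15 were tested, summed to 223 to 236 CPM in MM134 siFOXA1_E2 and 214 to 218 CPM in MM134 siNT_E2. They summed to 100 to 114 CPM in MM330 siFOXA1_E2 and 53.9 to 54.4 CPM in MM330 siNT_E2. COL1A1, their defining collagen gene, averaged 75.7 and 101 CPM in MM134 siFOXA1_E2 and siNT_E2, and 36.0 and 29.4 CPM in MM330 siFOXA1_E2 and siNT_E2. Their part in these results was not tested.

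Of 28 tested p53 targets, 14 had a positive and 5 a negative called difference (67.9%, against 31.8% of all genes and 44.0% of those expressed in both lines), with a median of 0.32. CDKN1A, the cell cycle inhibitor p21, stood at 134, 142 and 142 CPM in MM134 siFOXA1_E2 libraries, against 56.9, 57.2 and 59.6 CPM in MM134 siNT_E2 libraries, and rose by 1.27, against 0.35 in MM330. PLK2, a polo-like kinase gene, was unlike it: it stood at 46.2, 64.7 and 58.6 CPM in MM330 siFOXA1_E2 libraries, against 12.6, 10 and 11.7 CPM in MM330 siNT_E2 libraries, and its change of 0.04 in MM134 was not called. BCL2, the apoptosis inhibitor gene, gave -0.24 in MM134 and 1.31 in MM330. It stood at 38.2, 41.0 and 37.2 CPM in MM134 siFOXA1_E2 libraries, against 47.5, 44.4 and 46.0 CPM in MM134 siNT_E2 libraries. Its MM330 values were 19.3, 19.5 and 22.1 CPM with siFOXA1_E2, against 8.80, 9.08 and 6.79 CPM with siNT_E2. Neither pair of BCL2 groups overlapped, and the rise in MM330 left it below the level of MM134. Of 30 tested apoptosis regulators, 8 had a positive and 4 a negative called difference (40%, between the 31.8% of all genes and the 44.0% of those expressed in both lines).

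Of 39 tested genes of the unfolded protein and amino acid stress responses, 19 had a positive and 7 a negative called difference (66.7%, against 31.8% of all genes and 44.0% of those expressed in both lines), with a median of 0.23. In MM134, 12 rose and 13 fell, against 21% and 24.1% of all genes tested. In MM330, 6 rose and 26 fell, against 22.8% and 24.7%. CALR, the chaperone calreticulin, gave -0.01, not called, in MM134 and -0.69 in MM330, and CRELD2, another gene of the endoplasmic reticulum, gave 0.20 and -0.61. SLC7A5, an amino acid transporter gene also induced by E2, gave -1.32 in MM134 and -0.42 in MM330. Of 33 tested cholesterol and fatty acid synthesis genes, 14 were positive and 6 negative (60.6%, median 0.19), SC5D, a late sterol synthesis gene, with 0.13, not called, in MM134 and -0.56 in MM330. Of 32 tested ribosome biogenesis genes, 8 were negative and none positive (median -0.11), and the 25% called lay below the 31.8% of all genes. UTP20, of the small subunit processome, gave -0.34 in MM134 and 0.32 in MM330.

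Of 45 tested interferon response genes, 11 had a positive and 3 a negative called difference, 31.1% of the list, near the 31.8% of all genes and below the 44.0% of those expressed in both lines, with a median of 0.13 and of 0.32 without MM330 siFOXA1_E2 replicate 1. HLA-C gave 0.26 in MM134 and -0.70 in MM330, but the class I genes can share reads with near-identical copies. IRF1, an interferon-regulated transcription factor gene, gave -0.15, not called, in MM134 and -1.17 in MM330. Immune cell markers, 4 of 16 tested, summed to at most 1.62 CPM in the MM134 libraries and 12.6 CPM in the MM330 libraries. Of 29 tested hypoxia and glycolysis genes, 7 were positive and 5 negative (41.4%, against 44.0% of genes expressed in both lines), and the median of -0.07 became 0.10 without that replicate. EGLN3, an oxygen-sensing hydroxylase gene, gave 0.13, not called, in MM134 and -1.21 in MM330. Of 32 tested immediate-early and AP-1 genes, 8 were positive and 13 negative (65.6%, median -0.08). ETV4, an ETS factor gene downstream of ERK signalling, gave 0.07, not called, in MM134 and -1.41 in MM330, while DUSP4, a phosphatase that inactivates ERK, gave -0.43 and 0.66. Of 35 tested secreted and surface luminal proteins, 14 were negative and 4 positive (51.4%, median -0.22).

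**Figure D4:**
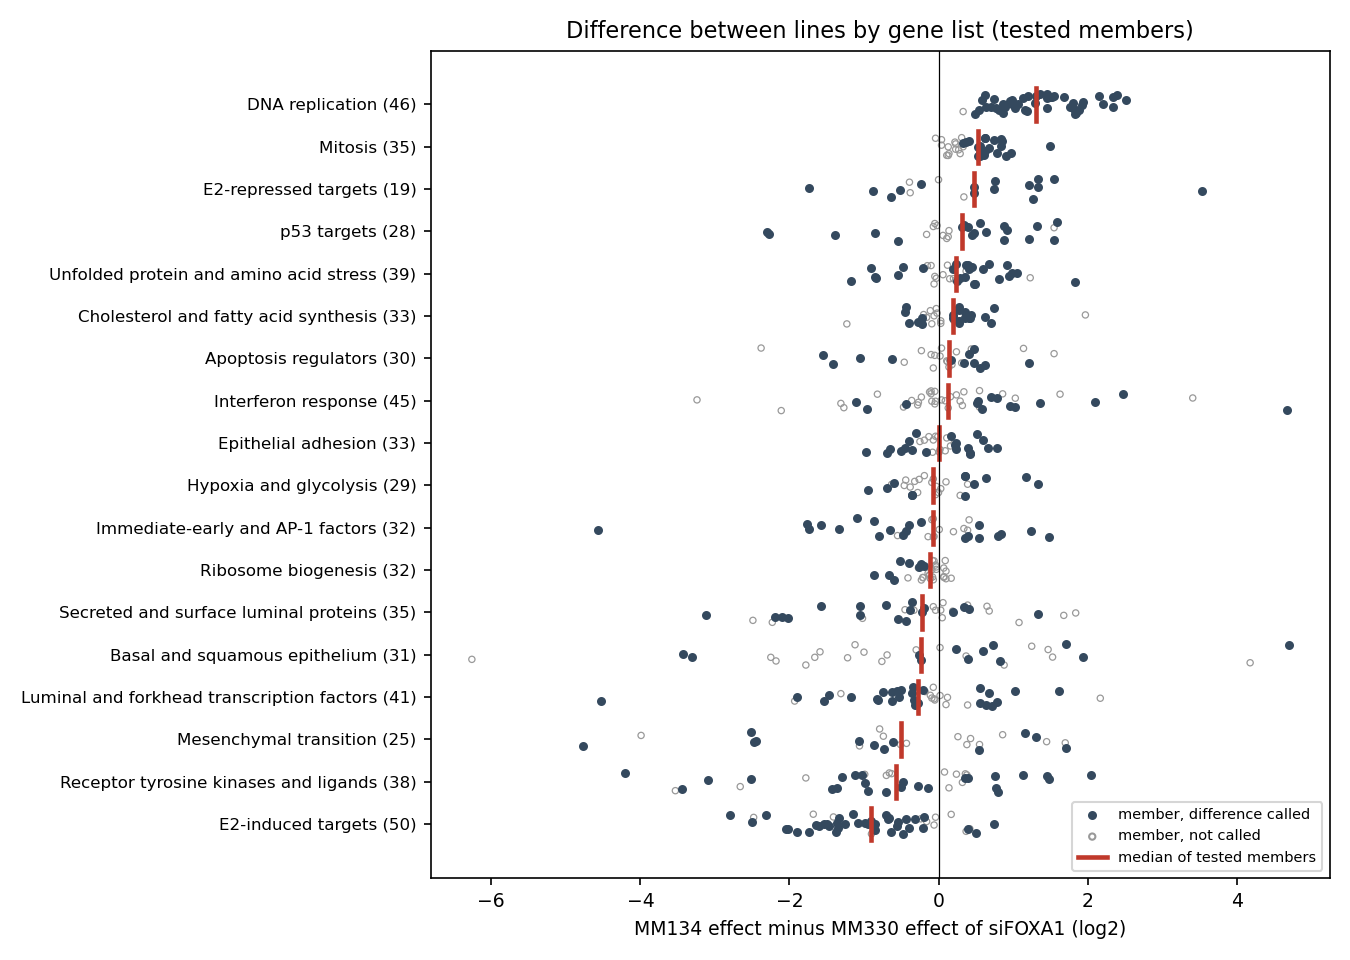
Difference between lines (log2 change in MM134 minus that in MM330) for every tested member of 18 gene lists, with the number tested in brackets. Dark points are members whose difference was called, open points the others, and red bars are list medians. DNA replication (median 1.31) lies at the top and E2-induced targets (median -0.90) at the bottom.

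Among genes that changed the same way in both lines, some did so at very different strength. KCNN4, a calcium-activated potassium channel gene, stood at 19.8, 20.6 and 19.9 CPM in MM134 siFOXA1_E2 libraries, against 8.03, 9.08 and 7.97 CPM in MM134 siNT_E2 libraries. In MM330 it stood at 6.4, 6.98 and 6.98 CPM in siFOXA1_E2 libraries, while the siNT_E2 libraries held 5 counts in all. LRP2, the endocytic receptor megalin, fell by 0.63 in MM134 and by 3.33 in MM330. It was high in MM134, at 220, 215 and 208 CPM with siFOXA1_E2 against 343, 330 and 324 CPM with siNT_E2. In MM330 it was low, at 0.886, 0.428 and 0.627 CPM against 6.62, 6.44 and 6.14 CPM. DHRS2, a dehydrogenase gene, rose by 2.65 in MM134 and by 0.86 in MM330, TMEM40 by 3.19 and by 0.92, and CYP4F3, a fatty acid hydroxylase gene, by 0.50 and by 3.54. TMPRSS3, a transmembrane protease gene, was left with 3 counts in all in MM134 siFOXA1_E2, against 135 in MM134 siNT_E2, and held 1475 and 2316 counts in MM330 siFOXA1_E2 and siNT_E2. Its MM330 fall of 0.47 (adjusted p = 0.0038) came from groups that overlapped. DCDC2, a doublecortin domain gene, fell by 4.21 in MM134, from 14 and 249 counts in siFOXA1_E2 and siNT_E2, and by 0.85 in MM330.

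The largest differences of genes expressed in a single line are given as levels only, since the other line was near its detection floor. SNAI1, an epithelial-to-mesenchymal transition factor gene, averaged 2.02 and 11.8 CPM in MM134 siFOXA1_E2 and siNT_E2, and 0.963 and 0.203 CPM in MM330 siFOXA1_E2 and siNT_E2, and it was called with opposite signs in the 2 lines. CD34 held 175 and 1030 counts in MM134 siFOXA1_E2 and siNT_E2, and 5 and 1 in the MM330 groups. PAX2 held 1585 and 1170 counts in the MM134 groups, and 0 and 10 in MM330 siFOXA1_E2 and siNT_E2. GHRHR held 3 and 2 counts in the MM134 groups, and 39 and 917 in MM330 siFOXA1_E2 and siNT_E2. Its call was lost in 5 of the other fits tried.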

How the data were processed

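The authors deposited raw counts per gene symbol for 45 libraries, with no normalisation, and all columns matched a sample. Per the submitters' processing notes, STAR 2.6.0a and limma were used with build GRCh38. The counting tool, annotation and strand setting are not given in the sources used here. Of 57353 symbols, 16974 had no count, 2 were repeated, and 27 had been turned into dates (0.195% of counts). GENCODE release 29 held 56598 of the symbols and gave the gene positions.

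Counts of the 30 MM134 and MM330 libraries (10 groups) were filtered with filterByExpr, scaled by TMM and fitted in R 4.3.3 with edgeR 4.0.16 (glmQLFit, glmQLFTest). Every adjusted p is from that fit, or from its repeat where a library is said to be left out. Each has Benjamini-Hochberg adjustment over all genes tested in its own fit. Levels are CPM from TMM-scaled totals. The scripts were tested on simulated counts. Reads carried no molecular identifiers.

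The members and the 22 gene lists (725 genes) were chosen with earlier results of these data known, so list counts are descriptions without a test, and some genes stand on more than 1 list. Of these, 1 list and 1 panel gene are not reported here. Named genes were the siRNA targets, a panel of breast genes, the largest differences in each class of direction at 10 CPM or more, and up to 4 called members of each list by smallest p. Alternatives were RLE scaling, no filter, DESeq2 1.42.0, limma-voom 3.58.1, 12 or 45 libraries, each line alone, a replicate block, and leaving out each of the 12 libraries or those with a higher pseudogene share.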

Additional observations from a re-analysis of the deposited data

Results flagged for a closer look

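The effect of FOXA1 siRNA differed between MM134 and MM330, by the test of the difference itself, for 6368 genes. For 847 of these it was called in both lines with opposite signs. ESR1 fell further in MM134, with a difference of -1.85 (log2 change in MM134 minus that in MM330).

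Among protein-coding genes expressed in both lines and reaching 10 CPM, the opposite effects with the largest differences were those of GPRC5A (2.49), TCF19 (2.27), CENPP (2.24), TMEM97 (2.19) and STRIP2 (2.14), which rose in MM134 and fell in MM330. PKIA (-5.94), SDK2 (-4.73), IGFBP5 (-4.20), IGFBP3 (-3.44) and SULF2 (-3.35) fell in MM134 and rose in MM330. Without MM330 siFOXA1_E2 replicate 1, the difference was 2.67 for TCF19 and 2.62 for GPRC5A, and all 10 stayed called. No cause was tested for any of them.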

How the results depend on the processing

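The number of genes called for the difference, 6368 as reported, was 5714 to 6479 when each of the 12 libraries was left out in turn and 5497 to 6549 under the other alternatives. The genes with opposite called effects, 847 as reported, numbered 745 to 893 and 730 to 948 in the same order. The MM134 effect was called for 8200 to 9560 and 8330 to 9992 genes, and the MM330 effect for 8673 to 9568 and 8734 to 9716. The lowest count of 5497 came without the libraries with a higher pseudogene share. Without those and MM330 siFOXA1_E2 replicate 1, an alternative chosen after seeing the data, it was 6228.

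Within a line, siFOXA1_E2 and siNT_E2 libraries with the same replicate number showed no strong shared deviation (correlations of -0.017 to 0.0243). These values cannot show whether such libraries were made or run together. With the replicate number as a block, 6150 genes were called for the difference, 829 with opposite effects, 8921 in MM134 and 9330 in MM330. Without the filter on low counts, 65.2% of called differences were positive, against 53% with it, and the cause was not tested.

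Of the differences of the 112 named genes under these alternatives, 2318 stayed on their side of the threshold, 31 lost a call and 3 gained 1, and no called difference changed direction. The losses concerned XBP1, KRT18, GHRHR, PGR and MYC, and the gains FOXA1 and GATA3. Genes near the detection floor of either line, such as PAX2, limit what the difference can show.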
